A study of Mus musculus with 107 samples.

Results

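The transcripts of 9 genes of the oxygen-sensing pathway were described in subcutaneous tumors of 12 mouse syngeneic models: the hypoxia-inducible factor (HIF) alpha subunits Hif1a, Epas1 and Hif3a, their shared partner Arnt, the degradation receptor Vhl, the prolyl hydroxylases Egln1, Egln2 and Egln3, and the asparaginyl hydroxylase Hif1an. The 9 genes were taken by symbol from a table of 50686 genes, and each symbol matched 1 row. Gene expression had been measured by sequencing of ribosomal RNA-depleted total RNA, as TPM (transcripts scaled to the same total in each tumor), a share of all transcripts that is corrected for transcript length. The treatment-naive group (Base) held 35 tumors collected at about 100 mm3, 2 from MC38 and 3 from each other model. On day 8 of dosing, 36 untreated tumors (NT) and 36 tumors of mice given lenvatinib (LEN) at 10 mg/kg by mouth once daily for 7 days were collected, 3 per model and group. Lenvatinib is an antiangiogenic drug that blocks VEGF and FGF receptor signaling.

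The models were BNL 1ME A.7R.1 (BNL below) and Hepa 1-6 from liver, Renca and RAG from kidney, LL/2 and KLN205 from lung, CT26.WT (CT26 below) and MC38 from colon, 4T1 and EMT6 from breast, MBT2 from bladder and B16-F10 from melanoma. Each was 1 cell line grown under the skin of mice of its own strain, which were 7 weeks old at implantation. BNL, RAG, 4T1, CT26, EMT6 and Renca grew in BALB/cAnNCrlCrlj mice, MC38 and B16-F10 in C57BL/6NCrl, LL/2 in C57BL/6JCrl, MBT2 in C3H/HeNCrl, KLN205 in DBA/2NCrl and Hepa 1-6 in C57L/J. The mice were male for BNL and Hepa 1-6 and female for the others, and the RAG cells had been adapted to growth in mice. The tumors were sequenced whole, so that vessels and immune cells of the host were part of each sample. With 1 line per model, cell line, organ and mouse strain cannot be told apart.

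In the presence of oxygen, the prolyl hydroxylases mark HIF alpha subunits, the VHL protein recognizes the mark, and the subunits are destroyed. When oxygen is low the alpha subunits escape, pair with ARNT and switch on genes of glycolysis, angiogenesis and survival, among which Egln1 and Egln3 themselves are known targets. The asparaginyl hydroxylase HIF1AN, also called FIH, blocks the transcriptional activity of HIF alpha by a separate oxygen-dependent reaction. HIF1A occurs in most cells, whereas EPAS1, also called HIF-2 alpha, is best known from endothelium, kidney and liver, and HIF3A is a family member with several short forms. Because the main control of the alpha subunits acts on the protein, the transcript levels given here measure neither HIF protein nor HIF activity. In whole tumors, fewer cells of a type and less RNA per cell cannot be told apart.

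The 9 genes lie at 9 separate loci of the mouse genome build GRCm38, and all are protein-coding. Egln1 lies at chr8:124908587-124949324 on the minus strand, Egln3 at chr12:54178981-54203860 on the minus strand, Epas1 at chr17:86753700-86833410 on the plus strand and Hif1a at chr12:73901375-73947530 on the plus strand. Hif1a and Egln3 thus share chromosome 12, and Egln2 and Hif3a share chromosome 7. The Hif1a locus overlaps an antisense gene, Gm15283, which had a mean of 2.38 TPM, and the strand setting of the counting was not given in the sources used here. Arnt holds a processed pseudogene on its own strand, Gm42672, with a mean of 7.25 TPM, so that part of the reads there could belong to either.

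The core of the known HIF response element is ACGTG or GCGTG, and because Egln1 and Egln3 both rose with lenvatinib, the windows around these letters are shown for them and, for comparison, for Hif1a. RefSeq promoters of build GRCm38.p6, from 250 bases before to 50 bases after the gene start, were found for 8 of the 9 genes, with Epas1 not among them. In the sequences the capitals mark the searched letters, on either strand, after 12 bases of context. The letters CACGTG in Hif1a hold ACGTG on both strands and so count as 2 overlapping matches, which gives Hif1a 3 matches of ACGTG against 1 each in Egln1 and Egln3, and Egln1 also has 1 of GCGTG.
Egln1, chr8:124949306-124949334, minus strand: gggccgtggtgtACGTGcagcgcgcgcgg
Egln1, chr8:124949364-124949392, minus strand: gcccggcccgccGCGTGcgcgcggccccc
Egln3, chr12:54204087-54204115, minus strand: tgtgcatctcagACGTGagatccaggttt
Hif1a, chr12:73907720-73907748, plus strand: cacacagacaagCACGTGagcggggcagc
Hif1a, chr12:73907785-73907813, plus strand: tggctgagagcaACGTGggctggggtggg
Counted from the RefSeq gene start, the first capital is at -68 and -126 in the Egln1 windows, at -229 in the Egln3 window, and the matches of Hif1a start at -135, -134 and -70. Of the 8 genes, 6 had at least 1 match, namely Hif1a, Hif3a, Arnt, Egln1, Egln2 and Egln3, and Vhl and Hif1an had none. Egln2, which was not called with lenvatinib, had the most, with 3 of ACGTG and 3 of GCGTG in 1 promoter. Another Egln2 promoter had 1 of GCGTG. Such letters are common: ACGTG was present in 19.6% of 32851 mouse promoters of the same length, GCGTG in 32.4% and either in 43.8%. The matches are a description of letters in these windows and name no bound site.

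The labels of the tumors held against the data. Each tumor of all groups was closest in expression to another tumor of its own model, and 99 were closest to one of their own group. B16-F10 tumors carried the melanocyte genes Pmel, Mlana and Tyr and Hepa 1-6 tumors the liver genes Alb and Afp, whereas the BNL line, though from liver, had at most 0.09 TPM of Alb and 0.74 TPM of Afp. The epithelial keratin gene Krt8 reached at most 0.32 TPM in CT26, 2.81 TPM in MBT2 and 3.48 TPM in MC38. A single tumor stood apart, 4T1 LEN tumor 4, in which protein-coding genes held 27.5% of the transcripts, against 37.1% to 66.6% in the other 106 tumors. Values that rest on that tumor are therefore also given without it.

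**Figure D1:**
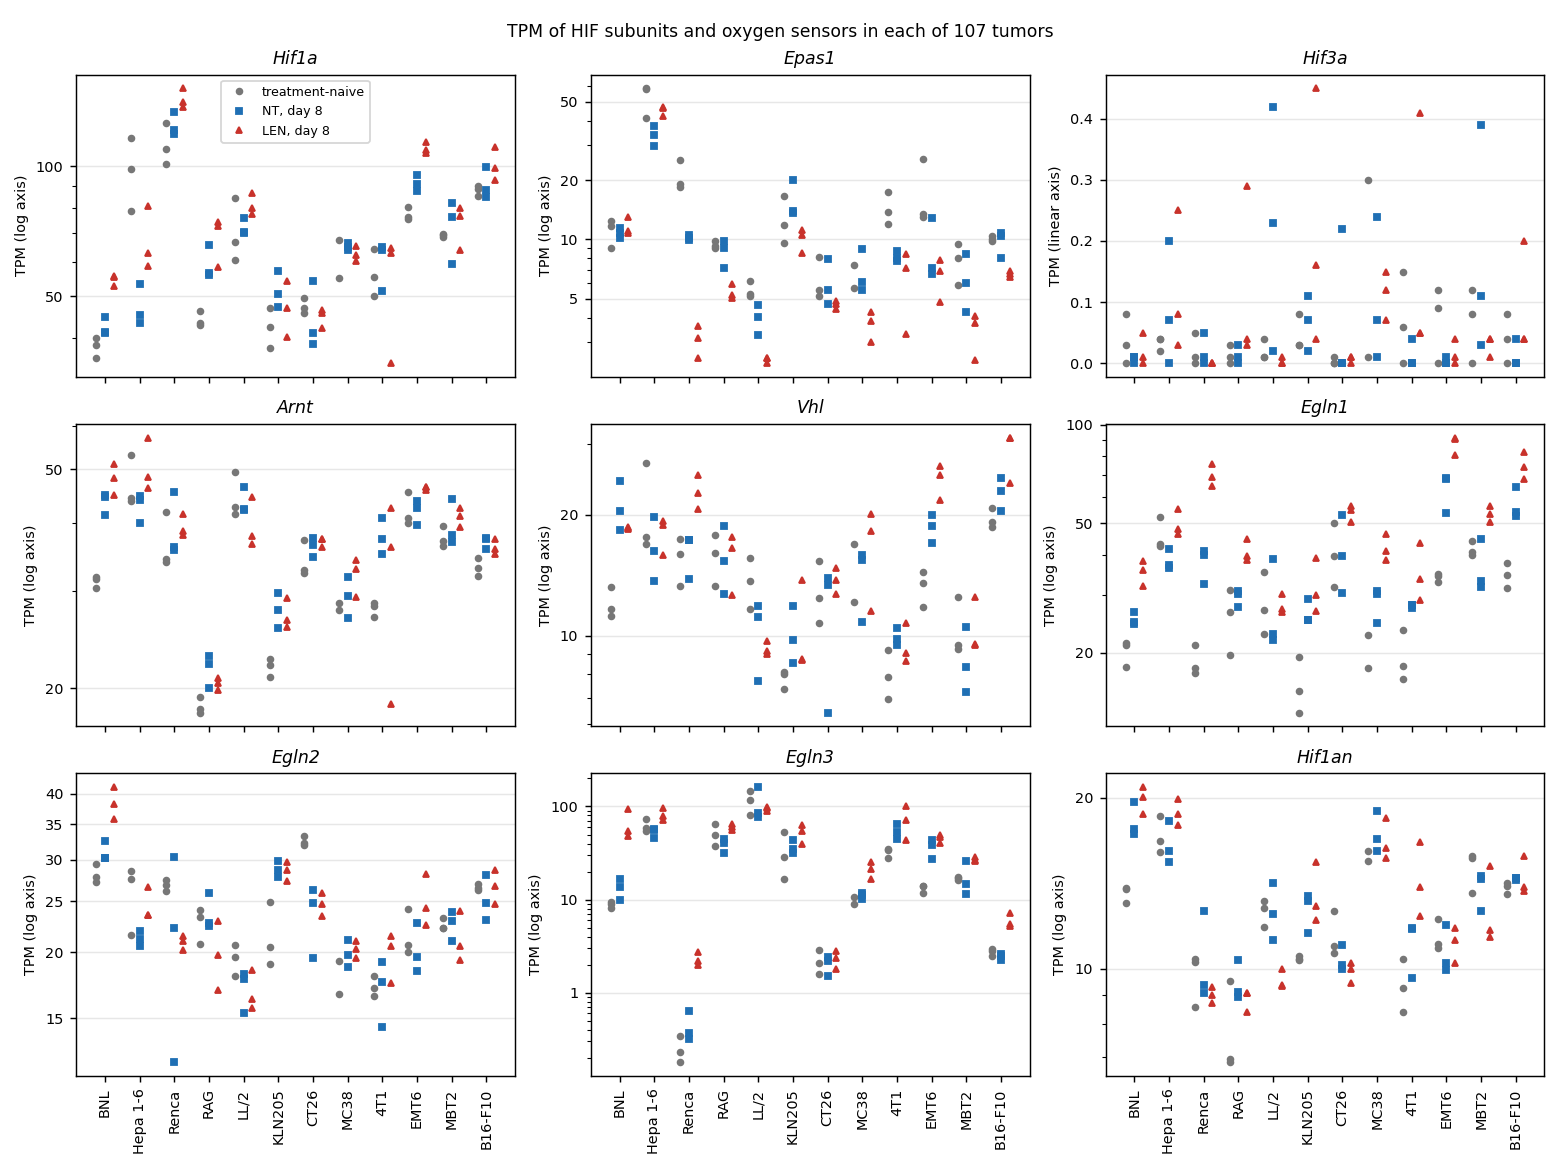
TPM of the 9 genes in each tumor, one panel per gene, by model (x axis) and group (gray circles, treatment-naive; blue squares, NT; red triangles, LEN); the y axis is logarithmic except for Hif3a, where it is linear. Egln3 spans the widest range between models, from 0.18 to 161 TPM, and Hif3a never exceeds 0.45 TPM.

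Before treatment, the sensors and the alpha subunits differed between models by very different amounts. Egln3 had the widest range of model means, 6.50 on the log2(TPM + 1) scale, followed by Epas1 with 3.02, Hif1a with 1.53 and Egln1 with 1.48. Arnt, Vhl, Hif1an and Egln2 had ranges of 1.29, 1.25, 1.06 and 0.88. In a moderated F test with limma over the 35 treatment-naive tumors, all 8 genes with a mean of at least 1 TPM differed between models, with adjusted p values from 6.08e-18 for Egln3 to 1.89e-07 for Vhl. That count is read against 93.6% of 17542 genes tested that passed the same threshold of 0.05, so that differing between models was no mark of these genes. Hif3a was below the minimum for testing.

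Among the alpha subunits, Hif1a was the more abundant throughout. It ranged from 38.1 ± 2.00 TPM in treatment-naive BNL tumors (mean ± SD, n = 3) to 112 ± 12.6 in Renca (n = 3), and 8 of the 11 neighbors in the order of models overlapped in their tumors. The order from high to low was Renca, Hepa 1-6, B16-F10, EMT6, LL/2, MBT2, MC38, 4T1, CT26, RAG, KLN205 and BNL. B16-F10 stood apart from EMT6, MBT2 from MC38 and 4T1 from CT26, and the other neighbors did not separate.

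Epas1 had a different order, led by Hepa 1-6 with 57.7, 41.5 and 58.5 TPM in its 3 tumors. Renca followed with 18.5, 25.2 and 19.1 TPM, and LL/2 was lowest with 5.26, 6.17 and 5.14 TPM. Between Renca and LL/2 came EMT6, 4T1, KLN205, BNL, B16-F10, RAG, MBT2, MC38 and CT26, and 9 of the 11 neighbors overlapped. Hepa 1-6 stood apart from Renca, and B16-F10, with 9.83 to 10.4 TPM, stood apart from RAG, with 9.0 to 9.78 TPM. Hif1a exceeded Epas1 in every tumor of all groups, by a ratio of 1.27 in the tumor where they were closest, an NT tumor of Hepa 1-6, to 56.0 in a LEN tumor of Renca. Hif3a was at 0 TPM in 29 tumors, was above 0 in the other 78 and had a median of 0.03 TPM, and it was left out of the tests by the minimum of 1 TPM. Its LEN and NT tumors overlapped in 10 models, with LEN above NT in 4T1 and below NT in LL/2, all at or under 0.42 TPM. Of all tested pairs of a gene and a model, 13.5% were apart with LEN higher and 10.9% with LEN lower. Values this near 0 are no result about Hif3a.

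The common partner Arnt was highest in Hepa 1-6, with 43.8 to 53.2 TPM, and lowest in RAG, with 18.1 to 19.3 TPM, where all 3 tumors lay below every treatment-naive tumor of the other models. Vhl, the substrate receptor of the ubiquitin ligase that removes HIF alpha, ranged from 7.37 to 8.13 TPM in KLN205 up to 16.9 to 26.9 TPM in Hepa 1-6. VHL is often lost in human clear cell kidney cancer, and in the 2 kidney models Vhl ranged from 13.3 to 17.5 TPM in Renca and from 13.3 to 17.8 TPM in RAG, within the range of the other models. Transcript levels of whole tumors, host cells included, do not show whether the gene is intact in the tumor cells. Hif1an ranged from 6.86 to 9.54 TPM in RAG to 16.1 to 18.6 TPM in Hepa 1-6. For these genes most neighbors in the order overlapped, 6 of 11 for Arnt, 9 of 11 for Vhl and 10 of 11 for Hif1an.

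The 3 prolyl hydroxylases differed in how they were spread over the models. Egln2 varied least, from 17.2 ± 0.765 TPM in 4T1 to 32.5 ± 0.620 in CT26 (n = 3 each), and CT26 stood apart from the next model, BNL. Egln1 ranged from 15.9 ± 3.23 TPM in KLN205 to 46.0 ± 5.39 in Hepa 1-6 (n = 3 each), and all 11 neighbors in its order overlapped. Egln3 was highest in LL/2, with 81.8, 146 and 117 TPM, and lowest in Renca, with 0.18, 0.34 and 0.23 TPM. Next above Renca were CT26, with 1.60 to 2.89 TPM, and B16-F10, with 2.5 to 2.97 TPM, and only 5 of the 11 neighbors overlapped. Egln3 levels were thus set apart between models more often than those of the other 8 genes, for which 6 to 11 neighbors overlapped.

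Because TPM is scaled by transcript length, the levels of the 3 enzymes can be set side by side. In treatment-naive tumors Egln1 was the most abundant of the 3 in 5 models, Egln3 in 5 and Egln2 in 2, which were BNL and Renca. Egln3 made up 70.0% ± 4.14 of the summed TPM of the 3 in LL/2 and 0.542% ± 0.161 in Renca (n = 3 each). In Renca, Egln2 held 58.6% ± 3.12 of the sum before treatment, 35% ± 7.56 in NT and 22.4% ± 1.78 in LEN (n = 3 each), while the share of Egln1 was 40.8% ± 2.97, 64.2% ± 7.07 and 75.1% ± 2.18. In LEN tumors Egln2 led in no model, Egln1 in 6 and Egln3 in 6. BNL was the model in which Egln3 newly led, with 45.9% ± 7.96 in LEN against 19.1% ± 3.50 in NT (n = 3 each).

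**Figure D2:**
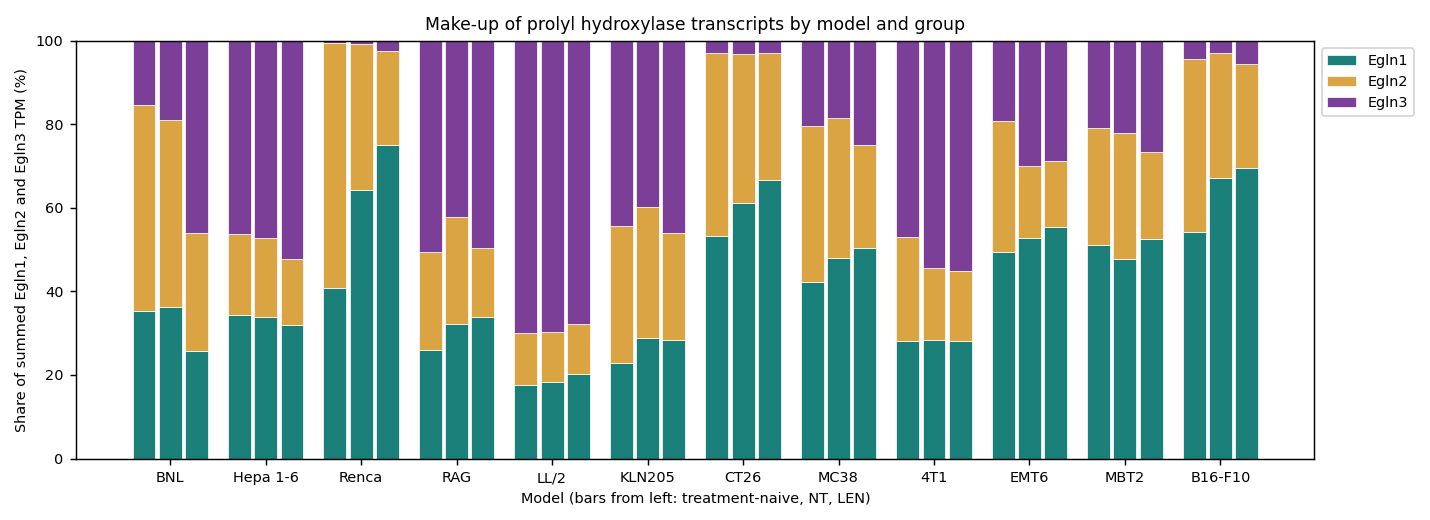
Share of the summed TPM of Egln1 (green), Egln2 (yellow) and Egln3 (purple), in percent, as group means for each model; the 3 bars of a model are, from the left, treatment-naive, NT and LEN tumors. Egln3 ranges from 0.542% of the sum in treatment-naive Renca to 70.0% in treatment-naive LL/2, and Egln2 leads in no model under LEN.

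The effect of lenvatinib was asked as the difference between LEN and NT tumors on day 8, averaged over the 12 models. The sensors Egln1 and Egln3 were higher in LEN tumors, Epas1 was lower, and Hif1a and Vhl were slightly higher. Averaged on the log2(TPM + 1) scale, Egln3 rose by 0.69 (SE 0.070, limma, adjusted p = 2.53e-11, higher in 11 of 12 models) and Egln1 by 0.43 (SE 0.044, limma, adjusted p = 4.86e-11, higher in 12 of 12). Epas1 fell by 0.46 (SE 0.060, limma, adjusted p = 1.80e-08, lower in 10 of 12). Of the 8 genes tested, 4 were called higher and 1 lower, beside 13.7% of all 17351 genes called higher, 9.87% called lower and 23.5% called in either direction. Lower calls were 41.9% of all calls with the values as deposited, 58.1% after rescaling to the upper quartile and 52.2% after rescaling to protein-coding genes, and Egln1, Egln3 and Epas1 kept their direction and call under both.

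Hif1a rose by 0.13 (SE 0.040, limma, adjusted p = 0.0163, higher in 9 of 12 models), and this call was lost when BNL, EMT6 or Hepa 1-6 was left out, with means of 0.09 to 0.11. From NT to LEN the share of TPM in protein-coding genes was higher without overlap in BNL (54.3% to 57.4%, then 60.2% to 62.0%), EMT6 (57.3% to 61.0%, then 62.9% to 66.6%) and B16-F10 (54.6% to 58.4%, then 59.1% to 60.6%) and lower in LL/2 (49.99% to 51.3%, then 47.3% to 48.7%). After rescaling to protein-coding genes the mean change of Hif1a was 0.12 and passed (limma, adjusted p = 0.0012). In BNL fitted alone, the Hif1a call was lost after upper-quartile rescaling, as given below. Vhl rose by 0.15 (SE 0.055, limma, adjusted p = 0.0431, higher in 9 of 12), which was lost without 4T1 LEN tumor 4 (adjusted p = 0.0505), without any 1 of 31 other tumors, and under both rescalings. The remaining 3 genes missed the threshold. Their mean differences were 0.01 for Arnt (95% interval -0.06 to 0.09, limma, adjusted p = 0.848), 0.07 for Egln2 (-0.01 to 0.15, adjusted p = 0.224) and -0.01 for Hif1an (-0.07 to 0.05, adjusted p = 0.920). Without 4T1 LEN tumor 4, the means of Egln3, Egln1, Epas1 and Hif1a were 0.72, 0.44, -0.44 and 0.15, and all 4 calls stood.

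**Figure D3:**
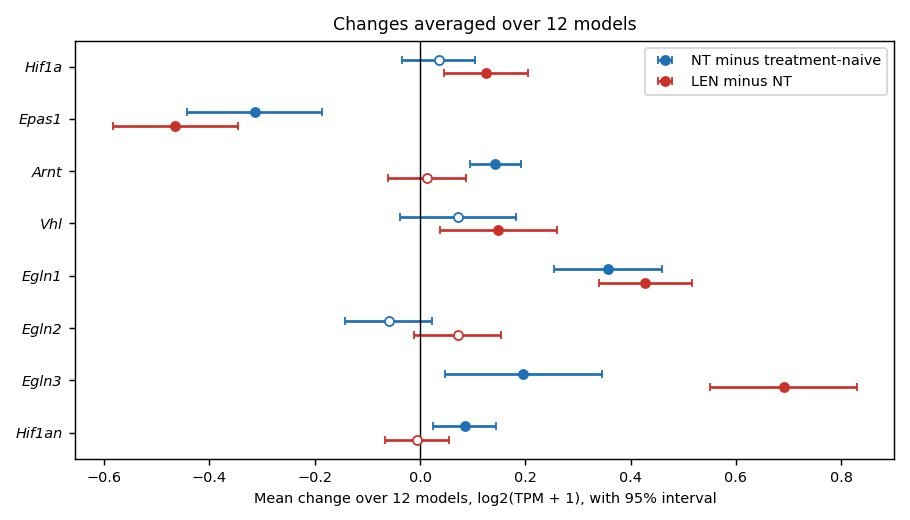
Mean change over 12 models in log2(TPM + 1) (x axis) for the 8 tested genes, for NT minus treatment-naive (blue) and LEN minus NT (red), with 95% intervals from limma; points with a white center missed the threshold of 0.05 for the adjusted p. Egln1 is to the right of 0 and Epas1 to the left of 0 in both comparisons, which share the NT tumors.

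Egln1, the main sensor of oxygen in most cells, was higher in LEN than in NT tumors in every model. A mean change in the same direction in 12 of 12 models was found for 0.893% of all genes tested. In 9 models the 3 LEN tumors all lay above the 3 NT tumors, whereas 13.5% of all gene and model pairs were apart in that direction. In Renca the NT tumors had 41.1, 32.6 and 39.8 TPM of Egln1 and the LEN tumors 65.1, 75.9 and 69.4 TPM. In EMT6 the values were 68.7, 68.3 and 53.6 TPM in NT and 90.7, 91.3 and 80.7 TPM in LEN, the highest of any model. In LL/2 they overlapped, with 21.9, 38.8 and 22.8 TPM in NT and 30.3, 26.6 and 27.3 TPM in LEN, and KLN205 and CT26 overlapped too. A difference between models in the size of the Egln1 change was not detected (limma F test, adjusted p = 0.197).

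Egln3, the hydroxylase best known for strong induction in low oxygen, changed by amounts that differed between models (limma F test of the differences, adjusted p = 5.02e-05, passed by 35.3% of all genes). In BNL it was 13.8, 16.6 and 9.84 TPM in NT and 48.3, 54.3 and 93.4 TPM in LEN tumors. In Renca it was 0.32, 0.64 and 0.37 TPM in NT and 2.75, 2.20 and 1.99 TPM in LEN tumors. In B16-F10 it was 2.46, 2.27 and 2.63 TPM in NT and 5.20, 5.45 and 7.13 TPM in LEN tumors. The groups did not overlap in these models, nor in RAG, MC38, MBT2 and Hepa 1-6. LEN thus lay above NT in 7 models, beside 13.5% of all pairs of a gene and a model. Renca is among the 7, although its Egln3 was under the minimum of 1 TPM in every NT tumor. LL/2, which had the most Egln3 before treatment, was the model with a mean change below 0, with 78.0, 161 and 84.5 TPM in NT and 99.4, 88.7 and 95.8 TPM in LEN, and its groups overlapped. At the low levels of Renca, the log2(TPM + 1) scale understates the change.

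Tested in each model alone, which leaves 3 tumors against 3, 9 of the 96 pairs of a gene and a model passed, beside 4.85% of all pairs of a gene and a model in these fits. They were in 3 models, BNL (31.5% of genes called), B16-F10 (11% called) and Renca (12.1% called). In Renca, limma gave Epas1 -1.45 (SE 0.121, adjusted p = 0.000773), Egln1 0.88 (SE 0.111, adjusted p = 0.00353), Egln3 1.2 (SE 0.174, adjusted p = 0.00624) and Vhl 0.48 (SE 0.118, adjusted p = 0.0417). In BNL it gave Egln3 2.17 (SE 0.275, adjusted p = 0.00167), Hif1a 0.36 (SE 0.061, adjusted p = 0.00519), Egln1 0.47 (SE 0.082, adjusted p = 0.00636) and Egln2 0.30 (SE 0.073, adjusted p = 0.0205). In B16-F10, Egln3 passed with 0.99 (SE 0.138, adjusted p = 0.00747), and Epas1 just missed with -0.47 (SE 0.118, adjusted p = 0.0501). The Vhl call in Renca and the Egln2 call in BNL were each lost without some single tumors, and the Hif1a and Egln2 calls in BNL were lost after upper-quartile rescaling, with 0.16 (adjusted p = 0.0767) and 0.10 (adjusted p = 0.381). Egln3 in Renca met the minimum of 1 TPM only through its LEN tumors, as its NT tumors had 0.32 to 0.64 TPM. Its call there is among the 9 and is given as a description only.

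BNL LEN tumors also differed from BNL NT tumors in markers of several cell types. The summed level of 5 epithelial markers was 18.0 to 46.1 TPM in NT and 1069 to 1255 TPM in LEN tumors. Treatment-naive BNL tumors had 166 to 208 TPM of them, so that NT lay below both. The sum of 5 skeletal muscle markers was 37.0 to 112 TPM in NT and 1526 to 2211 TPM in LEN. Fibroblast markers went from 8113 to 9196 TPM in NT down to 6568 to 7505 TPM in LEN. Endothelial markers went from 477 to 541 TPM down to 348 to 387 TPM. The mean log2 changes of T and NK cell and of adipocyte and skin markers were 0.84 and 1.59. In B16-F10 the skeletal muscle sum was 2.44 to 21.9 TPM in NT and 129 to 200.3 TPM in LEN. Macrophage markers there summed to 46.3 to 73.2 TPM in NT and 166 to 221 TPM in LEN, fibroblast markers to 129 to 155 TPM and 466 to 621 TPM, neutrophil markers to 1.52 to 8.28 TPM and 12.3 to 16.7 TPM, and T and NK cell markers to 0.83 to 2.97 TPM and 11.5 to 14.3 TPM. Adipocyte and skin markers of B16-F10 summed to 0.13 to 0.86 TPM in NT, with Krt14 at 0, and 4.2 to 34.0 TPM in LEN. In Renca, from NT to LEN, macrophage markers went from 577 to 658 TPM down to 364 to 379 TPM, endothelial markers from 130 to 155 TPM down to 65.8 to 72.7 TPM and pericyte and smooth muscle markers from 82.2 to 110 TPM down to 48.6 to 58.5 TPM, while neutrophil markers went from 14.6 to 15.5 TPM up to 29.7 to 40.2 TPM and T and NK cell markers from 3.55 to 4.67 TPM up to 5.43 to 6.5 TPM. The part of these cells in the changes of Egln1, Egln3 and Epas1 in these 3 models was not tested. With BNL left out, the mean change of Egln3 over the other 11 models was 0.56 and that of Egln1 0.42, and both passed.

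**Figure D4:**
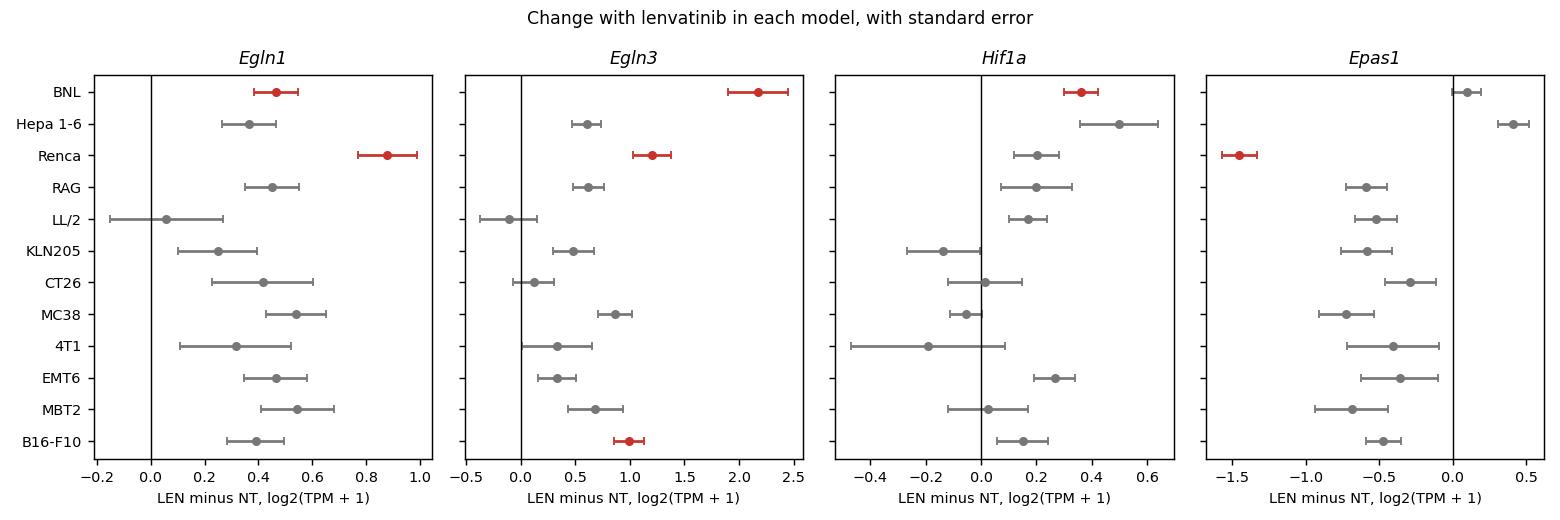
Difference between LEN and NT tumors in log2(TPM + 1) (x axis) of Egln1, Egln3, Hif1a and Epas1 in each model fitted alone with limma, with standard errors; red marks an adjusted p under 0.05 over all genes of that model. Egln1 is above 0 in 12 models and Epas1 below 0 in 10, with Renca lowest at -1.45.

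The fall of Epas1 also differed between models (limma F test, adjusted p = 0.000462). In Renca, Epas1 was 9.87, 10.2 and 10.5 TPM in NT and 3.64, 2.51 and 3.17 TPM in LEN tumors. In LL/2 it was 4.02, 3.27 and 4.66 TPM in NT and 2.5, 2.35 and 2.5 TPM in LEN tumors, and in RAG 7.15, 9.04 and 9.77 TPM against 5.91, 5.23 and 5.02 TPM. The LEN tumors lay below the NT tumors without overlap in 7 models, where 10.9% of all pairs of a gene and a model did so: Renca, LL/2, RAG, MC38, B16-F10, MBT2 and KLN205. In Hepa 1-6, the model with the most Epas1, the order was the opposite, with 34.0, 29.7 and 37.6 TPM in NT and 46.7, 46.6 and 42.2 TPM in LEN tumors and a difference of 0.41 (SE 0.107, limma, adjusted p = 0.104). Fibroblast markers in Hepa 1-6 summed to 1499 to 2560 TPM in NT and 2709 to 3173 TPM in LEN, and macrophage markers to 259 to 477 TPM and 394 to 622 TPM, with mean changes of 0.66 and 0.75, where 9 and 8 of the 12 models had changes below 0. Both changes were larger in B16-F10, at 1.53 and 1.64, where Epas1 fell without overlap. Pericyte and smooth muscle markers of Hepa 1-6 went down, from 144 to 160 TPM in NT to 124.7 to 125.3 TPM in LEN. The part of these cells was not tested. BNL was the other model without a fall, with 11.5, 10.8 and 10.1 TPM in NT and 11, 10.8 and 13.1 TPM in LEN. Without Hepa 1-6 the mean change over 11 models was -0.54, and without Renca it was -0.37, and both passed.

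Markers of the vessel wall were compared beside Epas1. Of 12 endothelial markers, 11 were tested and all 11 were called lower in LEN, with a median change of -0.74 beside -0.0019 for all genes. Cdh5, the cadherin of endothelial junctions, fell by 1.17, Cldn5, a claudin of tight junctions of vessels, by 1.09, and Pcdh12, a protocadherin of endothelium, by 0.83 (limma, adjusted p = 2.41e-21, 2.41e-21 and 1.37e-20, lower in 12 of 12 models each). The sum of the 12 markers had a median of 116 TPM over NT tumors (65.3 to 541) and 67.5 TPM over LEN tumors (28.4 to 387), and no marker was at 0 in all tumors. Of 7 pericyte and smooth muscle markers 6 were called lower and 1 higher, the latter being Des, which skeletal muscle also expresses. Hepa 1-6 had the smallest mean endothelial change, -0.33, and BNL, whose Epas1 did not fall, had one of the largest, -1.13. The pericyte and smooth muscle markers of BNL went the other way, from 262 to 290 TPM in NT to 397 to 402 TPM in LEN, and BNL was the 1 model in which their mean change, 0.35, was above 0. In B16-F10, where Epas1 was 8.07 to 10.8 TPM in NT and 6.46 to 6.92 TPM in LEN tumors, the endothelial sum was 238 to 261 TPM in NT and 256 to 262 TPM in LEN, while the mean of the log2 changes of its markers was -0.68. Among markers of other cells, all 5 tested of neutrophils, 5 of T and NK cells and 5 of skeletal muscle were called higher, as were 4 of 5 epithelial and 2 of 3 adipocyte and skin markers, while 2 of 8 macrophage markers were called higher and 4 lower, and 1 of 8 fibroblast markers higher and 2 lower. The part of these cells in the changes of Epas1 and of the hydroxylases was not tested.

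The deviations of single tumors from the mean of their own model and group give the same pairing as a description. Over all tumors of the 36 groups, which share library and scaling within each point, the deviation of Epas1 had r = 0.80 (rho 0.76) with that of the endothelial mean, 0.76 (rho 0.72) with pericytes and smooth muscle and 0.72 (rho 0.79) with fibroblasts. Without the 2 tumors farthest from the median of Epas1, these were 0.78, 0.73 and 0.73. Across the 12 models, the change of Epas1 with lenvatinib had r = 0.79 (rho 0.85) with that of the pericyte and smooth muscle mean, and 0.88 without Renca and Hepa 1-6. With the endothelial mean it had r = 0.48 (rho 0.28), which turned to -0.48 without these 2 models, so that this relation between models rested on them. Egln1 had r = 0.90 (rho 0.88) with the mean of 31 HIF target genes over all tumors, and 0.89 without the 2 farthest. Egln3 had r = 0.77 (rho 0.69) with the same mean, and 0.76 without the 2 farthest. Without 4T1 LEN tumor 4, r with the target mean was 0.90 for Egln1 and 0.75 for Egln3. That of Epas1 was then 0.80 with endothelial, 0.75 with pericyte and smooth muscle and 0.73 with fibroblast markers.

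Among 31 known HIF target genes, 29 were called higher in LEN over the 12 models and none lower, with a median change of 0.37, and Lox and Pfkfb4 did not pass. Vegfa, the angiogenic ligand, rose by 0.67, Aldoa, a glycolytic aldolase, by 0.48, and P4ha1, a collagen prolyl hydroxylase, by 0.37 (limma, adjusted p = 8.63e-14, 2.91e-12 and 3.34e-11, higher in 12, 11 and 10 of 12 models). LL/2 had the smallest mean change of these targets, 0.03, and Renca the largest, 0.72. In the 3 models in which neither Egln1 nor Egln3 separated the groups, LL/2, KLN205 and CT26, it was 0.03, 0.16 and 0.36. Over the 12 models, the change of Egln1 had r = 0.80 (rho 0.60) with the mean change of the targets, and 0.55 without Renca and LL/2. The change of Egln3 had r = 0.63 (rho 0.77), and 0.76 without BNL and LL/2. Before treatment the pairing was uneven: over the 12 models r with the target mean was 0.77 for Egln1 and 0.22 for Egln3.

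Of 18 genes of HIF cofactors and turnover, 16 were tested, 2 were called higher with lenvatinib and none lower, and their median change was -0.02. That share is near the 13.7% of all genes called higher and is no result about these genes. The 2 were Os9, which codes for a lectin reported to bind HIF-1 alpha and its hydroxylases, at 0.16 (limma, adjusted p = 0.00207), and Siah2, a ubiquitin ligase for prolyl hydroxylases, at 0.13 (limma, adjusted p = 0.00306). The subunits of the VHL ligase gave -0.10 for Rbx1, -0.07 for Elob, -0.03 for Eloc and -0.0049 for Cul2, and the coactivators gave -0.0014 for Ep300 and -0.04 for Crebbp. None of these 6 passed, and they were named for their roles after their values were seen. The number called rose to 6 after upper-quartile rescaling and to 5 after protein-coding rescaling.

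**Figure D5:**
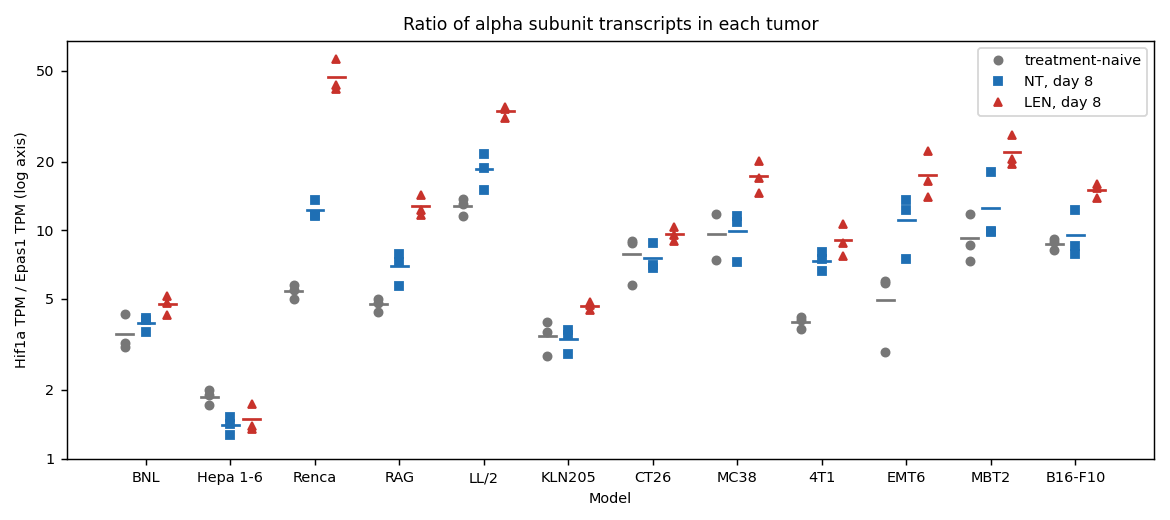
Ratio of Hif1a TPM to Epas1 TPM in each tumor (y axis, logarithmic) by model (x axis) and group (gray circles, treatment-naive; blue squares, NT; red triangles, LEN), with lines at group means. The ratio is higher in LEN than in NT on average in all 12 models, and in Renca the means are 5.41, 12.3 and 47.0.

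As Hif1a rose a little and Epas1 fell, the balance of the alpha subunit transcripts was compared within tumors. As a description with no test, the mean ratio of Hif1a to Epas1 was higher in LEN than in NT in 12 of 12 models, and the tumors did not overlap in 10, the exceptions being Hepa 1-6 and 4T1. The median of the 12 model means was 5.17 before treatment, 8.56 in NT and 13.9 in LEN. In Renca the ratio was 5.41 ± 0.387 before treatment, 12.3 ± 1.12 in NT and 47.0 ± 7.84 in LEN (mean ± SD, n = 3 each). In LL/2 it was 12.7 ± 1.1, 18.5 ± 3.26 and 33.2 ± 1.99, and in Hepa 1-6 it was 1.86 ± 0.142, 1.40 ± 0.126 and 1.49 ± 0.212 (n = 3 each). The ratio was formed after the opposite changes of the 2 genes were seen. Its counts of 12 and 10 models restate those changes and are no separate evidence, and no share over other pairs of genes was computed.

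Untreated tumors were also compared between day 8 (NT) and the treatment-naive state, over 71 tumors. Tumor size, time in the host and round of collection change together between these groups and cannot be told apart, and the sequencing instrument of each tumor is not known. It shares the NT tumors with the lenvatinib comparison, so each has its own values here and no overlap was counted. Egln1 rose by 0.36 (SE 0.051, limma, adjusted p = 7.62e-07, higher in 9 of 12 models), Arnt by 0.14 (SE 0.024, limma, adjusted p = 1.44e-05, higher in 9 of 12) and Epas1 fell by 0.31 (SE 0.064, limma, adjusted p = 0.000184, lower in 10 of 12). Egln3 rose by 0.20 (SE 0.074, limma, adjusted p = 0.0413, higher in 6 of 12) and Hif1an by 0.08 (SE 0.030, limma, adjusted p = 0.0261, higher in 7 of 12). Of the 8 genes 4 were called higher and 1 lower, beside 17% and 11.5% of 17428 genes, 28.5% together. Lower calls were 40.3% of all calls as deposited, 71.2% after upper-quartile and 78.9% after protein-coding rescaling, and under both the calls of Egln3 and Hif1an were lost while Egln2 was called lower. Hif1a, Egln2 and Vhl did not pass as deposited, with mean differences of 0.04, -0.06 and 0.07, and the sign of Hif1a turned under both rescalings.

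All 8 genes differed between models in this comparison, beside 66.5% of all genes. Hif1a was set apart by Hepa 1-6, where treatment-naive tumors had 98.6, 78.7 and 116 TPM and NT tumors 43.3, 45.2 and 53.3 TPM without overlap. Macrophage markers in these Hepa 1-6 tumors summed to 565 to 848 TPM before treatment and 259 to 477 TPM in NT. Epithelial markers went from 1173 to 1356 TPM down to 864 to 989 TPM. Pericyte and smooth muscle markers went from 85.9 to 113 TPM up to 144 to 160 TPM. The part of these cells in the Hif1a difference was not tested. In no other model were all NT tumors below all treatment-naive ones in Hif1a, and in 4 models they were all above, whereas of all pairs of a gene and a model 13.9% were apart with NT lower and 17.1% with NT higher. Without Hepa 1-6 the difference between models was lost for Hif1a (limma, adjusted p = 0.203), and its mean change was 0.13. In Renca, Egln1 was 17.9, 21.1 and 17.3 TPM before treatment and 41.1, 32.6 and 39.8 TPM in NT, while Epas1 went from 18.5, 25.2 and 19.1 TPM to 9.87, 10.2 and 10.5 TPM. In the same Renca tumors fibroblast markers went from 1608 to 2483 TPM down to 367 to 767 TPM, endothelial markers from 199 to 260 TPM down to 130 to 155 TPM and pericyte and smooth muscle markers from 143 to 175 TPM down to 82.2 to 110 TPM. In EMT6, Egln1 was 32.9, 34.8 and 34.5 TPM before treatment and 68.7, 68.3 and 53.6 TPM in NT, and Egln3 14.1, 11.8 and 14.0 TPM and 43.2, 38.7 and 27.5 TPM. Endothelial markers of these EMT6 tumors went from 141 to 251 TPM down to 76.6 to 140 TPM. Their epithelial markers went from 185 to 224 TPM up to 280 to 349 TPM. The part of these cells was not tested. The share of TPM in protein-coding genes moved with the group in some models, from 43.5% to 45.9% before treatment to 57.3% to 61.0% in NT in EMT6, from 39.6% to 42.3% to 50.8% to 52.7% in KLN205 and from 45.3% to 49.0% to 54.3% to 57.4% in BNL. It was also higher without overlap in 4T1 (37.1% to 40.4%, then 40.5% to 46.8%), and lower without overlap in Hepa 1-6 (56.2% to 59.1%, then 50.2% to 52.3%) and CT26 (52.9% to 56.4%, then 44.7% to 50.9%). After rescaling to protein-coding genes, the mean changes over 12 models were 0.30 for Egln1, 0.08 for Arnt and -0.39 for Epas1, and all 3 passed.

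The counts of the other lists are read against the same 17% and 11.5% of all genes called higher and lower, with a median change of 0.01. Of 31 HIF target genes 22 were called higher and 2 lower in NT against treatment-naive tumors, the lower ones being Stc2 and Pfkfb4, and of 16 tested cofactor and turnover genes 9 were called higher and none lower. Of 12 endothelial markers 7 were called lower and none higher, with a median of -0.17, and the 5 skeletal muscle markers were all called lower, with a median of -1.23. Lower calls were also made for 4 of 8 fibroblast (median -0.29), 3 of 5 T and NK cell (-0.28), 3 of 5 adipocyte and skin (-0.72), 3 of 8 macrophage (-0.09), 2 of 5 neutrophil (-0.20), 2 of 5 epithelial (-0.12) and 1 of 7 pericyte and smooth muscle markers (-0.01), and none of these lists had a higher call. The summed level of the muscle markers had a median of 112 TPM over treatment-naive tumors (1.55 to 636.6) and 33.4 TPM over NT tumors (2.44 to 149), and the part of these cells in the changes of the 8 genes, the fall of Epas1 included, was not tested.

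Genes whose pattern over the 36 means of model and group was most like each of the 8 expressed genes were named by Pearson's r among 13282 protein-coding genes, as a description. Those nearest to Egln1 were Bnip3 (r = 0.91), Pkm (0.83) and Gys1 (0.81), and those nearest to Epas1 were Aoc3 (0.93), Cygb (0.91) and Flt4 (0.90). Egln3 was most like Chic2 (0.78), Ankrd13d (0.75) and B4galt1 (0.75), and Hif1a was like Adam9 (0.85) and Cyb5b (0.80). Vhl was most like Brk1 (0.86), Emc3 (0.85) and Laptm4b (0.82), of which Brk1 lies 7.0 kb and Emc3 92.3 kb from Vhl on chromosome 6. Arnt was most like Fam168a (0.85), Copa (0.80) and Sec22b (0.79), Hif1an most like Zkscan17 (0.88), Rad54l2 (0.85) and Fbxw8 (0.82), and Egln2 most like Zdhhc4 (0.75), Inpp5a (0.75) and Dnajc18 (0.75). Of the 24 genes found in this way, 1 was again among the nearest 3 when only the 12 treatment-naive means were used, Cygb for Epas1. The 36 means share cell lines between groups, so they are not independent points.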

How the data were processed

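Reads had been trimmed (Trimmomatic 0.36), aligned to build mm10, also called GRCm38 (STAR 2.5.2b), and quantified (RSEM 1.2.31) by the authors, per the submitters' processing notes. The deposited values are TPM, which sum to the same total in each tumor, so the depth of each library is unknown and no counting interval could be given. Sequencing used 2 instruments, and which tumors ran on which was not given in the sources used here. TPM were put on a log2(TPM + 1) scale, a pseudocount of 1. Genes with a mean of at least 1 TPM over the fitted tumors were tested with limma 3.58.1 (R 4.3.3, mean-variance trend), with Benjamini-Hochberg adjustment over all genes and a threshold of 0.05. The fits were a F test between models of 35 treatment-naive tumors, the mean over 12 models of LEN minus NT (72 tumors) and of NT minus treatment-naive (71 tumors) with F tests between models, and LEN against NT in each model alone. The fitting was tested on simulated data.

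The 9 genes and all lists were chosen with earlier results of these data known. Named besides them were the 3 genes most like each, of which 1 is not reported here, and, in the HIF target, cofactor and endothelial lists, the 3 with the smallest adjusted p in each direction among those called. A second gene with the symbol Itgam was kept out of the macrophage list. Alternatives were other pseudocounts, minimums, scalings and variance models, a replicate block, and leaving out each tumor and each model. Deviations of same-numbered tumors of NT and LEN correlated between -0.08 and 0.08 over 20 pairs, so the numbers do not pair tumors. Tumors of a group came from separate mice as far as the labels number them, and p-values measure the spread between these tumors.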

Additional observations from a re-analysis of the deposited data

Results flagged for a closer look

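With lenvatinib, the change of 3 genes differed between models in an F test of the differences with limma: Epas1 (adjusted p = 0.000462), Egln3 (adjusted p = 5.02e-05) and Hif1an (adjusted p = 0.0148). Of these, Hif1an had a mean change near 0, was higher in LEN in 6 models and lower in 6, and lost this difference without LL/2, where NT tumors had 14.2, 12.5 and 11.2 TPM and LEN tumors 9.98, 9.35 and 9.33 TPM (adjusted p = 0.120).

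Between treatment-naive and NT tumors, the change of all 8 tested genes differed between models in the same test, with adjusted p values of 2.96e-07 for Hif1a, 5.02e-05 for Egln1, 0.000269 for Arnt, 0.00236 for Egln3, 0.00400 for Epas1, 0.00464 for Vhl, 0.00941 for Egln2 and 0.0137 for Hif1an. These counts are read against 35.3% and 66.5% of all genes that differed in the respective comparison.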

How the results depend on the processing

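The calls of Egln1, Egln3 and Epas1 with lenvatinib over the 12 models kept their direction and passed under every alternative run. Leaving out 1 tumor gave 0.41 to 0.45, 0.67 to 0.72 and -0.48 to -0.44, and leaving out 1 model 0.39 to 0.46, 0.56 to 0.76 and -0.54 to -0.37. The number of the 8 genes called with lenvatinib, 5, was 4 to 6 without 1 tumor and 3 without EMT6 or Hepa 1-6 (3 to 5 over models). The number differing between models, 3, was 3 to 5 without 1 tumor, reaching 5 without 4T1 LEN tumor 5, and 2 to 4 without 1 model. For NT against treatment-naive, 5 calls became 4 to 5 without 1 tumor and 3 to 6 without 1 model, with 3 without 4T1 or BNL, and the 8 genes differing between models were 8 without any 1 tumor, 6 to 8 without 1 model, 6 after upper-quartile and 5 after protein-coding rescaling. All 8 differed between treatment-naive models without any 1 tumor. The 9 calls within single models were 8 to 11. HIF target calls were 28 to 29, endothelial calls 11 to 12 and cofactor calls 2 to 3 in these leave-outs. Cofactor calls were 6 after upper-quartile and 5 after protein-coding rescaling, and endothelial calls 5 at a minimum of 5 TPM, where fewer genes are tested. Of the 24 genes found most like the members, 1 stayed with treatment-naive means alone.

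Small mean changes that missed the threshold turned sign. Arnt with lenvatinib was -0.0074 after upper-quartile rescaling, -0.0058 without 4T1 LEN tumor 5 and -0.0065 without Hepa 1-6, and ranged from -0.0058 to 0.0417 without 1 tumor. Hif1an ranged from -0.0163 to 0.0056 without 1 tumor and was 0.0265, 0.0045, 0.0012 and 0.0087 without LL/2, MBT2, RAG and Renca. Hif1a in NT against treatment-naive was -0.0175 after upper-quartile and -0.0279 after protein-coding rescaling. The cause was not tested.

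Vhl with lenvatinib lost its call with no minimum (adjusted p = 0.0727), after upper-quartile (0.0690) and protein-coding rescaling (0.0560), without any 1 of 32 tumors and without any 1 of 7 models. Egln3 in NT against treatment-naive lost its call with no minimum (0.0696) and after upper-quartile (0.170) and protein-coding rescaling (0.181). All p here are limma's. Tumors that share a number across groups were not from the same mouse, and fits with the replicate number as a block gave the same numbers of member calls, 5, 3, 5 and 8, so this pairing changed no count. Leaving-out within MC38 treatment-naive tumors leaves 1 tumor, assumed to vary like the others. Depth is unknown, so counting error at low levels, such as Egln3 in Renca, could not be given.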
